A study of Mus musculus with 18 samples.

Results

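Old mesenchymal stem cells (MSCs) that had been co-cultured with young MSCs were compared with old and with young MSCs grown alone, and 98 genes, selected on these values, were lower after the co-culture although young MSCs held more of their RNA than old MSCs did. In these genes the rejuvenated old cells therefore lay farther from the young cells than the old cells had. The 98 were found among 27179 genes by group means of the deposited normalized counts, the reads of a gene divided by 1 size factor per library. Members had a mean of at least 50 over the 18 libraries. Their difference of rejuvenated old from old MSCs was at most -0.6 and that of young from old MSCs at least 0.3, both on the scale log2(group mean + 1). Both differences were thus used to choose the genes, are given as a description and carry no test. A difference between young and rejuvenated old MSCs follows from them.

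MSCs are stromal cells of the bone marrow that attach to plastic and can form bone, cartilage and fat, and all of these came from C57BL6 mice. The young group held MSCs from donors of 6 weeks and the old group MSCs from donors of 18 to 24 months, each kept alone for 7 days. Rejuvenated old MSCs were old MSCs kept for the same 7 days behind a membrane with pores of 0.4 micrometre, with young MSCs on its other side. Medium (alpha-MEM with 20% fetal bovine serum), plating at 100000 cells per well and passages 2 to 5 were common to the groups, and 6 libraries were made of each. Old MSCs that shared a well with other old MSCs were not analysed here, so the effect of young cells and that of any second layer of cells cannot be told apart. The labels number the 6 libraries of a group as biological replicates without saying which animals they came from, and the spread between them may be partly technical.

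Reads on genes numbered 22936251 to 25648769 in the young libraries, the old ones held 24965971 to 29559194 and the rejuvenated old ones 26018046 to 29155223. Transcripts of the stromal markers Cd44 and Ly6a were present in every library. The Ly6a level was not alike: young MSCs had a mean count of 25100, against 6135 for old MSCs and 12900 after the co-culture. No Ly6a range of one group reached another. Means of the stromal marker Itgb1 lay closer together, with 27810 for young MSCs, 29450 for old MSCs and 28370 after the co-culture. Like Ly6a, others of the 12 stromal markers examined differed widely between young and old MSCs, and these differences ran in both directions. Mean counts of Thy1 and Nt5e were 198 and 295 in young and 1.19 and 15.9 in old MSCs. Those of Eng and Lepr were 163 and 36.2 in young and 7340 and 378 in old MSCs. Cd34 RNA ranged from 6787 to 7191 in young and from 19.4 to 28.01 in old MSCs. The summed count of 13 macrophage markers was 923 to 1039 in young, 15598 to 19612 in old and 15563 to 19006 in rejuvenated old libraries, with Ptprc and Adgre1 at 0 in young, so that the old and rejuvenated old ranges overlapped. In bulk RNA, fewer cells of a type and less RNA per cell cannot be told apart. The study describes its donors as male, but 4 Y-linked genes (Ddx3y, Eif2s3y, Kdm5d and Uty) had at most 2 reads in any young library and at least 529 in any old or rejuvenated old one. Counts of the X-linked Xist were 21.2 to 41.2 in young, 1.97 to 14.4 in old and 4.83 to 10.3 in rejuvenated old libraries. Sex chromosome content and age therefore cannot be told apart in the comparison of young with old MSCs. These counts do not settle the sex of the young donors. Rejuvenated old replicate 1 stood apart from its group. Over 49 genes with a mean of at least 200 in young and under 3 in old MSCs, its median level was 2.71% of the young mean, while the 5 others ran from 0.0377% to 0.288%. Its Cd34 count was 402, against a median of 39.1 in its group, and results without it are given beside those with it.

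In proliferating and tissue-building stromal cells, adhesion to the matrix through integrins and dystroglycan, the secretion of factors that bind or release growth factors, and the actin and microtubule skeleton are closely tied. Interferon-induced genes form another well-known program, in which type I interferon acts through STAT factors on a promoter motif, the interferon-stimulated response element, and many antiviral genes move together. Members were sorted into 8 roles from general knowledge after their values had been seen. These were matrix and adhesion (14 genes), secreted factors, receptors and signalling (22), interferon response (6), cytoskeleton and motors (14), metabolic enzymes (14), transport and membrane traffic (10), transcription and nuclear RNA (5), and other or unclear roles (13).

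Promoters are shown for the 4 interferon-induced members that have one in the RefSeq table of GRCm38.p6, because these members varied together among libraries, and for Capn6, which had the largest difference. There, 73 of the 98 members had 98 windows of 300 bases, reaching from 250 before the start site to 50 after it. The 250 bases before the start are printed 5′ to 3′ on the gene's own strand. Capitals mark the core of the response element on either strand, spelled GAAA, any 2 bases, and GAAA.
Rsad2 (chr12:26456453-26456702, minus strand): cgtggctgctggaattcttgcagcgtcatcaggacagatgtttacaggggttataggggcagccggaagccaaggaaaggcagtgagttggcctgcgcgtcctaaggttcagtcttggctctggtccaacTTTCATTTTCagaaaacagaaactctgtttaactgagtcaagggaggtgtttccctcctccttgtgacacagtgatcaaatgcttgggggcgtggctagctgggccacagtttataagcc
Ifit3b (chr19:34607707-34607956, plus strand): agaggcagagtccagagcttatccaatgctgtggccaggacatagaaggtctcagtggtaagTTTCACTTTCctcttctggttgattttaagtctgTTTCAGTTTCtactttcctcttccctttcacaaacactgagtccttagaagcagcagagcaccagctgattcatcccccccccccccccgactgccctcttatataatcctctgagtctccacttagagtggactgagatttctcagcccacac
Ifi205 (chr1:174031756-174032005, minus strand): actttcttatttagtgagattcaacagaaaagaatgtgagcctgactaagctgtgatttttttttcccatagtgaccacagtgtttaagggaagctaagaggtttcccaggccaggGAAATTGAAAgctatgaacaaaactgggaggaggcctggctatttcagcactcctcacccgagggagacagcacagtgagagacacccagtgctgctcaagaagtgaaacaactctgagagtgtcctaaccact
Cxcl10 (chr5:92348890-92349139, minus strand): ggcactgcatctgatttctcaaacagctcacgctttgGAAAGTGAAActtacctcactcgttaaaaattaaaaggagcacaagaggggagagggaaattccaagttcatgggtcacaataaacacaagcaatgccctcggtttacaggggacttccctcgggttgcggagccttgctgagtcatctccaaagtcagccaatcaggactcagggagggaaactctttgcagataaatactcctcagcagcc
Capn6 (chrX:143827413-143827662, minus strand): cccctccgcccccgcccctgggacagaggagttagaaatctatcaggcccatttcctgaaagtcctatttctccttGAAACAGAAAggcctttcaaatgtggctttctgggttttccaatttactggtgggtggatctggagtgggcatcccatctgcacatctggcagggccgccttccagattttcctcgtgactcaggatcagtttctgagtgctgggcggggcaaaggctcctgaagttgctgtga
Each of these 5 stretches held the motif, with 2 copies in Ifit3b, and Ifi205 had another copy that began 23 bases past its start site. The motif was found in 3.44% of all 32851 promoter windows, in 3.0% of those of genes with a mean of at least 50 and in 5.1% of the 98 windows of members. It was in the windows of 4 of the 4 interferon-induced members with an entry, and among the other members only in that of Capn6. Neither Mx1 nor Gbp10 had an entry. The sites TGANTCA (AP-1), ACATTCC (TEAD) and TACGTG (HIF), also searched on both strands, lay in 7.14%, 1.02% and 2.04% of the members' windows, in 5.14%, 2.85% and 3.7% of the windows of genes with a mean of at least 50, and in 7.81%, 3.85% and 3.23% of all windows. A match is a run of letters and not a shown binding site.

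The mean was at least 50 for 12203 genes, of which 296 (2.43%) were lower in rejuvenated old MSCs to the same limit, and 4124 (33.8%) were higher in young MSCs to the limit of the rule. The 98 members were 0.803% of the 12203 genes. They made up 33.1% of the 296 lowered genes, close to the 33.8% among all genes. Another 162 of the lowered genes (54.7%) were lower in young than in old MSCs by the mirrored limit, where 35.8% of all genes were, and 36 lay between. The members' difference of rejuvenated old from old MSCs had a median of -0.81 and ran from -2.57 in Capn6 to -0.60 in Cyth3, with 26 members at or below -1. Their difference of young from old MSCs had a median of 1.69 and ran from 0.34 in Igf2r to 6.35 in Frem1. In the median member the old mean was 31.0% of the young mean and the rejuvenated old mean 16.6% of it. The number of members with at most 10% of the young level was 16 in old and 32 in rejuvenated old MSCs.

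**Figure D1:**
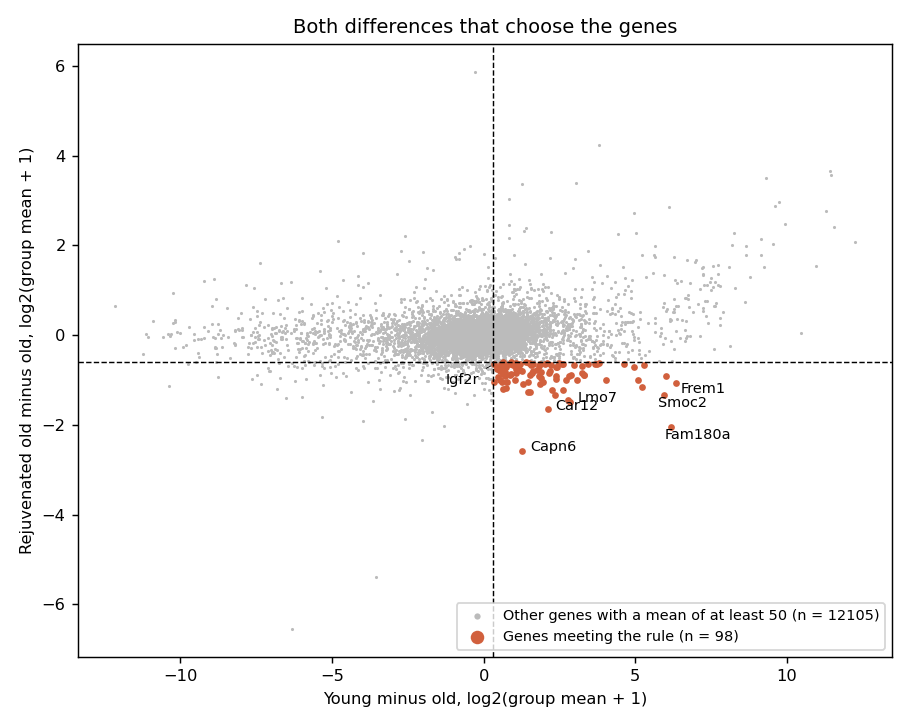
Each point is 1 of the 12203 genes with a mean normalized count of at least 50, placed by its young minus old difference (x axis) and its rejuvenated old minus old difference (y axis), both of log2(group mean + 1). Dashed lines mark the limits of the rule at 0.3 and -0.6. The 98 members (orange) fill the lower right corner, most of them just below the line, with Capn6 at -2.57 and Fam180a at -2.04 farthest down.

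The groups were also compared library by library, which the rule on means does not fix. All 6 rejuvenated old libraries lay below all 6 old ones in 66 of the 98 members, where 11.6% of the 14353 genes tested did so. All 6 young libraries lay above all 6 old ones in 91 members (35.7% of genes tested), and both held in 64 (2.63%). Since the rule had chosen both contrasts, these counts describe how cleanly the libraries sorted and nothing is read from them. By role, all 3 groups lay apart in 12 of 14 cytoskeletal genes, 17 of 22 secreted or signalling genes, 5 of 5 transcription and nuclear RNA genes, 8 of 14 genes each of matrix and of metabolism, 6 of 10 transport genes and 8 of 13 others, but in 0 of 6 interferon-induced genes. Members varied more between libraries than other genes did. Their median coefficient of variation was 8.16% between young, 12.5% between old and 19.5% between rejuvenated old libraries, against 5.61%, 5.57% and 7.23% over all 12203 genes. Their counts were also lower, with a median mean of 228 against 914.

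**Figure D2:**
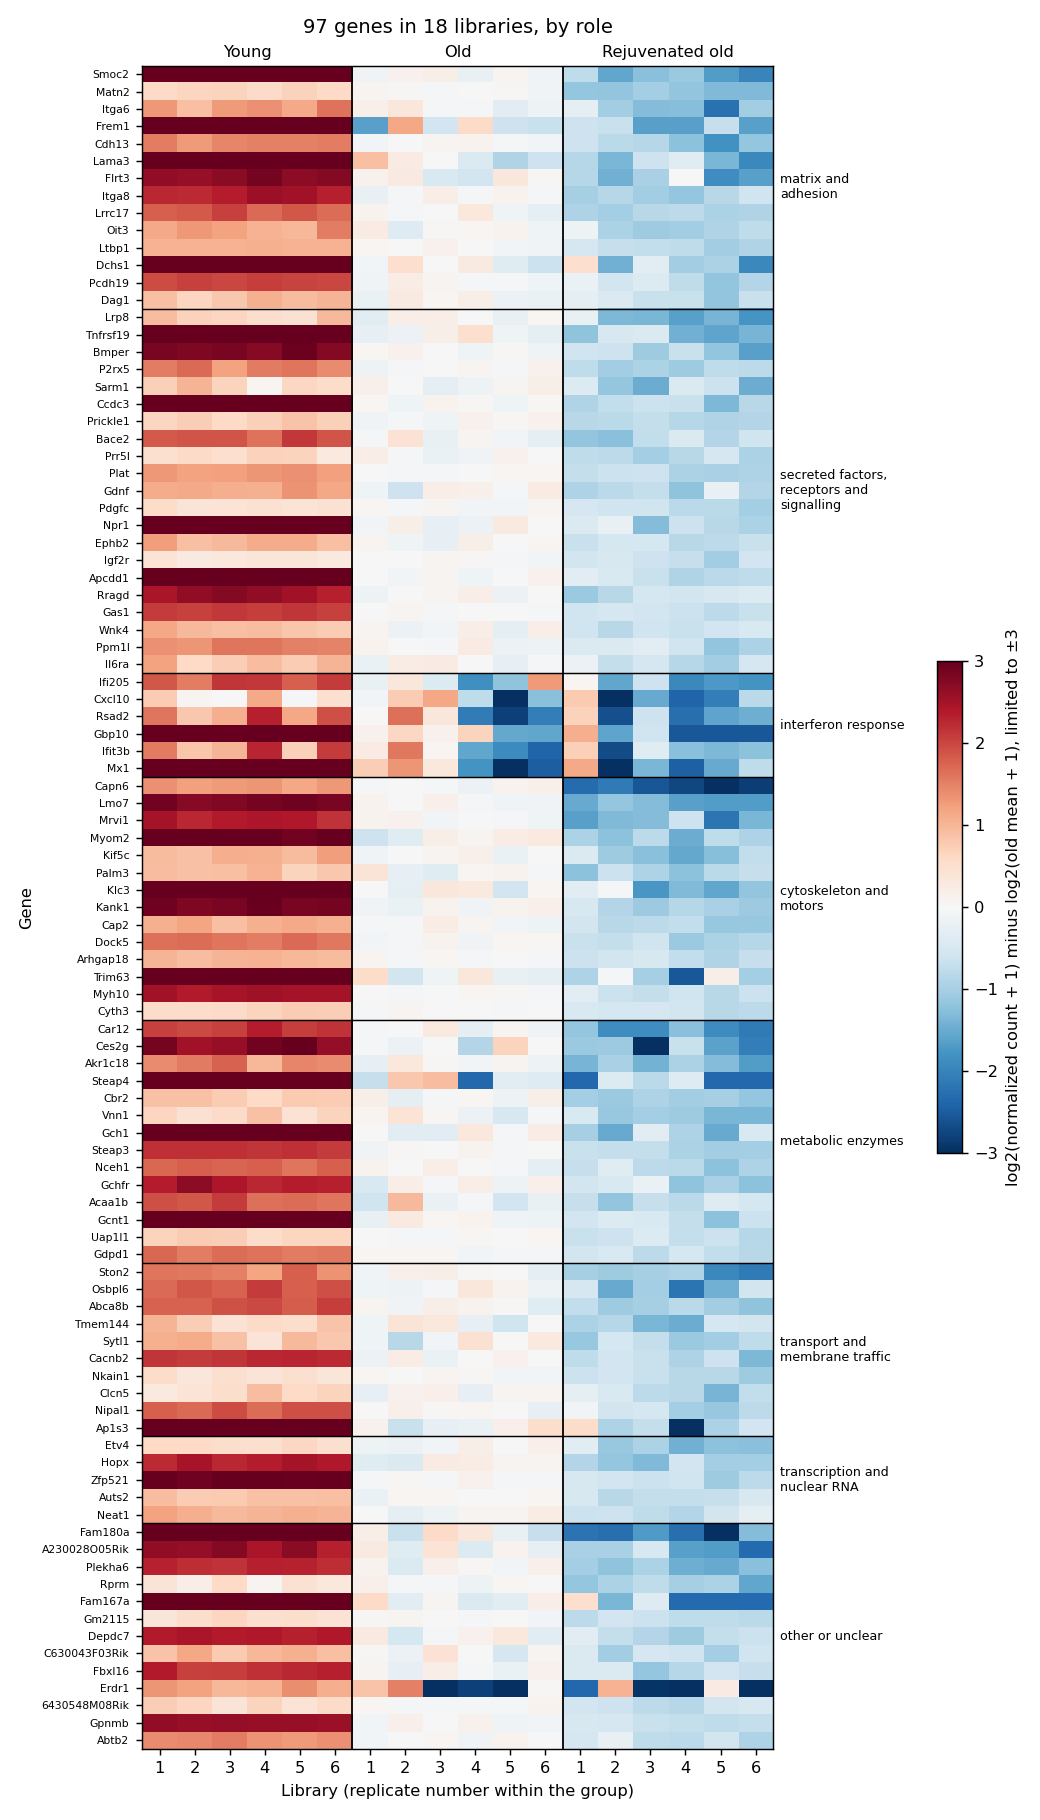
Rows are 97 of the 98 members sorted by role and columns the 18 libraries, with the replicate number under each. Colour is log2(normalized count + 1) minus log2(old mean + 1), limited to ±3. Young libraries are mostly red and rejuvenated old ones mostly blue, while the interferon rows and Erdr1 are mixed within old and rejuvenated old MSCs. In a few rows, such as Cxcl10, single young libraries lie near the old mean.

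Capn6 (chrX:143802236-143827412), a calpain-family protein without protease activity that binds microtubules, was lowest after co-culture relative to old MSCs. Its normalized count was 991 to 1146 (median 1089) in young, 394 to 495 (median 433) in old and 51.2 to 101.0 (median 69.9) in rejuvenated old libraries. No library of one group reached another, and the old mean was 6.02 times the rejuvenated old mean and 41.2% of the young mean. Lmo7 (chr14:101729928-101934708), which links actin to cell junctions, had counts of 1753 to 2002 (median 1915), 242 to 292 (median 258) and 81.0 to 117.0 (median 88.3) in the same order. These groups did not overlap either, with a difference of -1.48 of rejuvenated old from old MSCs and 2.84 of young from old. Mrvi1, a partner of cGMP-dependent protein kinase in smooth muscle, had 287 to 361 (median 332), 57.7 to 68.9 (median 61.5) and 13.0 to 40.6 (median 24.1), again without overlap. Myh10, the heavy chain of nonmuscle myosin IIB, had a normalized count of 6987 to 7837 in young, 1297 to 1420 in old and 765 to 1073 in rejuvenated old libraries. The kinesin heavy chain Kif5c and the kinesin light chain Klc3 were both members, with rejuvenated old means of 48.8% and 51.5% of the old mean, and the myosin-associated Myom2 stood at -1.01. Cyth3, an exchange factor for ARF GTPases, was the member nearest the limit (-0.60), yet its 720 to 927 in rejuvenated old did not reach the 1223 to 1344 of old libraries.

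**Figure D3:**
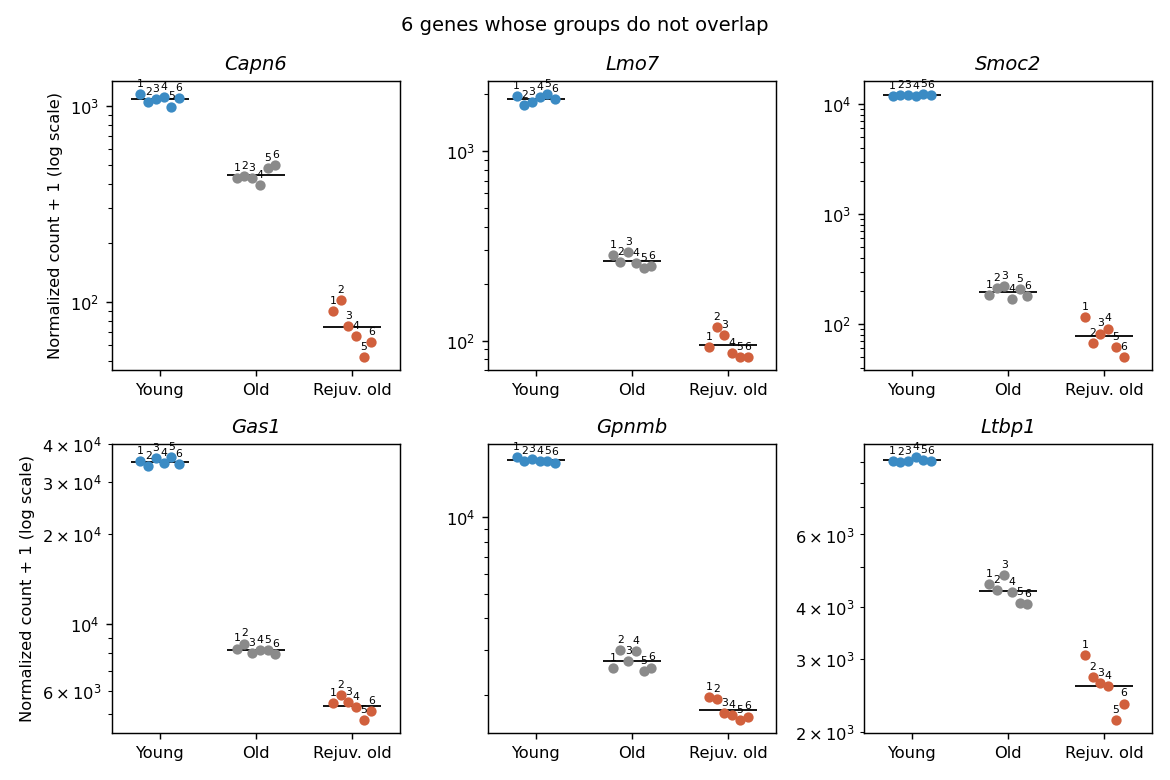
Points are the normalized counts plus 1 of single libraries on a log axis, labelled with the replicate number, and lines are group means of 6 libraries. In Capn6, Lmo7, Smoc2, Gas1, Gpnmb and Ltbp1 the 3 groups are stacked without overlap, young highest and rejuvenated old lowest.

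Among the 14 matrix and adhesion members, the median difference of rejuvenated old from old MSCs was -0.95. Smoc2 (chr17:14279490-14404790), a secreted calcium-binding protein of the SPARC family, had 11763 to 12308 (median 12087) in young, 168 to 221 (median 195) in old and 49.1 to 115.3 (median 73.5) in rejuvenated old libraries. Young MSCs thus held 61.8 times the old mean, and the rejuvenated old cells 39.5% of that small old level. Matn2, a matrilin that bridges matrix filaments, lay much closer in young and old MSCs, at 2486 to 2703 (median 2564) and 1563 to 1761 (median 1681), and was at 663 to 824 (median 736) in rejuvenated old ones. Its rejuvenated old libraries were far below both other groups. Members of the laminin-binding machinery were Itga6, Lama3 and Dag1. Itga6, the integrin chain that pairs with beta 1 or beta 4 to bind laminin, had 189 to 315 (median 249) in young, 80.3 to 127.0 (median 96.7) in old and 20.49 to 82.4 (median 44.3) in rejuvenated old MSCs. Its old and rejuvenated old ranges touched, because replicate 1 of the latter was at 82.4; the difference was -1.09 with that library and -1.33 without it. Dag1, which encodes dystroglycan, differed by -0.62, and Lama3, a laminin chain of epithelial basement membranes, was at only 0.943 to 4.83 in rejuvenated old and 3.01 to 12.9 in old libraries. Itga8, a receptor chain for RGD-containing matrix proteins, had 295 to 373 (median 318), 52.7 to 71.1 (median 61.0) and 27.0 to 40.6 (median 32.4), and these groups lay apart. Ltbp1, which holds latent TGF-beta in the matrix, had 8959 to 9241 (median 9039), 4067 to 4785 (median 4373) and 2138 to 3069 (median 2603). Its 3 groups lay apart as well, with a rejuvenated old mean of 28.4% and an old mean of 48.3% of the young mean. Oit3, a secreted zona pellucida domain protein, had overlapping old and rejuvenated old ranges (29.5 to 46.2 and 18.1 to 35.01). Frem1, a basement membrane protein, was essentially a young transcript, at 218 to 304 in young, 0 to 5.91 in old and 0 to 1.03 in rejuvenated old libraries. At these counts of at most 6 reads no fold is given between old and rejuvenated old MSCs.

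The 22 secreted, receptor and signalling members had a median difference of -0.73 from old MSCs. Gas1, a GPI-anchored co-receptor for hedgehog proteins, had the highest level per kilobase of all members in old MSCs. Its counts were 33842 to 36315 (median 34914) in young, 7946 to 8626 (median 8197) in old and 4798 to 5791 (median 5377) in rejuvenated old libraries. Gdnf, a neurotrophic factor that signals through Ret, had 219 to 262 (median 226), 67.0 to 123.1 (median 108) and 44.4 to 88.5 (median 57.1). Here the old and rejuvenated old libraries overlapped. Igf2r, the receptor that carries IGF2 and mannose 6-phosphate-tagged enzymes to lysosomes, was nearest the limit on the young side, with 6068 to 6735 (median 6409), 4751 to 5306 (median 5048) and 2435 to 3634 (median 3325). Its 3 groups still did not overlap. Plat, the tissue plasminogen activator, had 4450 to 4998 (median 4661), 1863 to 2014 (median 1919) and 989 to 1260 (median 1097). Its 3 groups lay apart, as did those of the growth factor Pdgfc (difference -0.71 of rejuvenated old from old) and the ephrin receptor Ephb2 (-0.66). Il6ra, the ligand-binding chain of the interleukin 6 receptor, differed by -0.61, with replicate 1 of rejuvenated old MSCs at 191 inside the old range of 182 to 255. Members that modulate BMP or Wnt signalling were Bmper (-0.91) and Apcdd1 (-0.64), and in both the 6 rejuvenated old libraries lay below the 6 old ones. Lrp8, a receptor for reelin and apolipoprotein E, had the largest difference of this role (-1.19), and Tnfrsf19, a TNF receptor family member, was next at -1.01. For Lrp8, replicate 1 of rejuvenated old MSCs was at 92.7, inside the old range of 88.2 to 126.0. The Lrp8 difference was -1.49 without that library.

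None of the 6 interferon-induced members had old and rejuvenated old libraries that lay apart, and neither did 26 members of other roles. Rsad2, the antiviral enzyme viperin, had 269 to 770 (median 404) in young, 21.1 to 479.5 (median 93.6) in old and 23.6 to 245.1 (median 52.5) in rejuvenated old libraries. Its old replicates 1 to 3 were at 152, 479.5 and 192 and its old replicates 4 to 6 at 34.5, 21.1 and 35.6, and the difference between the group means was -0.85. Ifit3b, a copy of the RNA-binding Ifit3 whose reads may be divided between both genes, had 1687 to 4977 (median 2542), 191 to 3040 (median 705) and 159 to 1666 (median 432). Mx1 belongs to a family of dynamin-like antiviral GTPases, but the annotation lists it as a transcribed pseudogene. Its counts were 294 to 644 (median 417), 3.01 to 78.8 (median 23.5) and 2.83 to 70.0 (median 10.8). Cxcl10, a chemokine that draws T cells, had 84.2 to 191.3 (median 106), 9.03 to 193.9 (median 65.3) and 5.66 to 148.3 (median 24.5). In each of these 4 the old and rejuvenated old ranges overlapped almost entirely. Gbp10 and Ifi205, from families of guanylate-binding and DNA-binding proteins with close copies that could share reads, differed by -0.72 and -1.05 and overlapped too. In all 6 members rejuvenated old replicate 1 was the highest library of its group. Without it the differences from old MSCs were larger, at -1.20 for Ifit3b, -1.43 for Ifi205, -1.54 for Rsad2, -1.62 for Mx1, -1.72 for Gbp10 and -1.81 for Cxcl10. Without old replicate 2 the differences of Mx1, Rsad2 and Ifit3b shrank or turned, to -0.13, -0.05 and 0.07. Old replicate 2 was the highest old library in each of these. It was not in Ifi205, Cxcl10 and Gbp10, where old replicates 6, 3 and 4 were highest, at 132.8, 193.9 and 8.18. The differences of these 3 members without those libraries are not given here.

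A wider list of 32 interferon-stimulated genes, of which Rsad2, Ifit3b and Mx1 are part, was set beside these members. In rejuvenated old against old MSCs, 1 of the 32 was higher and 0 were lower (limma, adjusted p under 0.05), with a median log2 fold change of 0.12, while 20.6% of all genes tested were lower and 21.0% higher. Without replicate 1, 1 was higher and 1 lower, with a median of -0.03. In young against old MSCs 18 were higher and 2 lower, against 41.6% and 44.1% of all genes tested. The summed count of the list was 28251 to 131954 in old and 33989 to 102790 in rejuvenated old libraries, led by old replicate 2 and rejuvenated old replicate 1. That library was above the old mean in 32 of the 32 genes, and the mean of the other 5 was below it in 21. The 6 members were chosen for lower group means and the rest of the list was not. Nothing is therefore read from a difference between the members and the list.

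**Figure D4:**
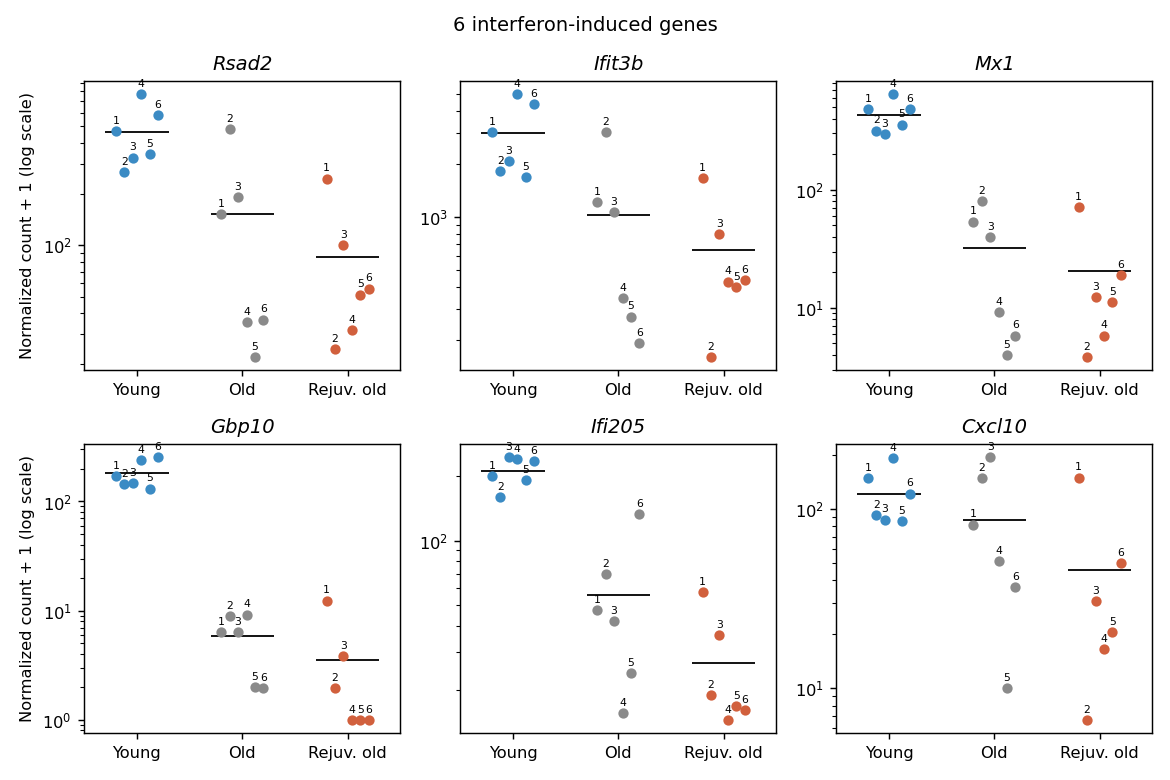
Points are normalized counts plus 1 of single libraries of the 6 interferon-induced members on a log axis, with replicate numbers, and lines are group means of 6 libraries. Old and rejuvenated old libraries overlap in every panel, and replicate 1 is the highest rejuvenated old library in all 6.

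Metabolic enzymes numbered 14, with a median difference of -0.86. Car12, a membrane-bound carbonic anhydrase, had 163 to 212 (median 172) in young, 32.7 to 49.6 (median 40.1) in old and 8.49 to 17.5 (median 10.4) in rejuvenated old libraries. Its groups lay apart, and the old mean was 3.31 times the rejuvenated old one. Car12 is also part of a list of 36 hypoxia and glycolysis genes, most of which were on the other side. After co-culture 29 were higher and 4 lower than in old MSCs (limma, adjusted p under 0.05), with a median log2 fold change of 0.76. Over all genes tested 21.0% were higher and 20.6% lower. Akr1c18, which inactivates progesterone, had 96.2 to 164.3 (median 131), 39.8 to 59.1 (median 46.5) and 14.2 to 24.1 (median 18.1), also without overlap. The carboxylesterase Ces2g differed by -1.44, but its 9.998 to 31.1 in old and 0.951 to 11.6 in rejuvenated old libraries overlapped. The metalloreductases Steap3 and Steap4, which reduce iron and copper, were both members, with old means per kilobase of transcript of 163 and 1.30. Steap3 had 3602 to 3866 in young, 779 to 897 in old and 409 to 529 in rejuvenated old libraries, whereas Steap4 had 136 to 217, 0 to 8.62 and 0 to 2.90. All rejuvenated old libraries had at most 3 reads of Steap4 and overlapped the old ones, so no fold is given between them. Gch1, the first enzyme of tetrahydrobiopterin synthesis, and Gchfr, its feedback regulator, were members together, at -0.88 and -0.72 from old MSCs, and in both the old and rejuvenated old ranges met.

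The 10 transport and membrane traffic members included Ston2, an endocytic adaptor (difference -1.26 of rejuvenated old from old MSCs), Osbpl6, an oxysterol-binding protein relative (-1.09), and Abca8b, an ABC transporter (-0.97). In these 3 all rejuvenated old libraries lay below all old ones. Among the 5 members with a role in the nucleus were the ETS factor Etv4 (-1.01), the small homeodomain protein Hopx (-0.98) and Zfp521 (-0.68), a zinc finger protein that restrains adipocyte and bone differentiation. Neat1, the long noncoding RNA that builds paraspeckles, was abundant throughout, with 22781 to 26843 (median 24111) in young, 9746 to 13639 (median 11861) in old and 6300 to 9581 (median 7504) in rejuvenated old libraries. All 5 had non-overlapping groups.

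Among members of other or unclear roles, Fam180a (chr6:35312743-35326141) had the second largest difference. Its counts were 605 to 765 (median 660) in young, 4.81 to 12.9 (median 8.35) in old and 0 to 2.83 (median 0.998) in rejuvenated old libraries, and its groups did not overlap. With at most 3 reads in every rejuvenated old library, the old mean was at least 2.91-fold higher. Gpnmb, a transmembrane glycoprotein of melanosomes and lysosomes that is also made by macrophages, had 16339 to 17209 (median 16588), 2482 to 3006 (median 2642) and 1602 to 1961 (median 1688). It was highest in young MSCs, where the summed macrophage markers were lowest. Which cells the Gpnmb RNA came from was not tested. Rprm, which arrests cells before mitosis, had 169 to 241 (median 205) in young, 143 to 179 (median 157) in old and 53.8 to 93.2 (median 80.6) in rejuvenated old libraries, so that young and old MSCs overlapped while rejuvenated old ones lay below both. Plekha6, a junctional protein with a pleckstrin homology domain, differed by -1.22 from old MSCs with no overlap. Erdr1 was divided within the groups, at 382, 598, 18.3, 29.1, 17.1 and 215 in old replicates 1 to 6 and between 24.5 and 434.2 in rejuvenated old ones.

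Replicate 1 of rejuvenated old MSCs was the highest of its group in 42 of the 98 members, where it was highest in 19.9% of all genes with a mean of at least 50. Replicate 5 was the lowest in 34 members, against 27.6% of all genes. Outside the interferon set, the median member lay 0.14 above its group median in replicate 1 and 0.12 below it in replicate 5 (log2). Without replicate 1 the rule would take 137 genes, 96 of the 98 among them. Erdr1 and Rragd would leave and 41 genes would enter. The median difference of the 98 from old MSCs would be -0.87 in place of -0.81. The remaining rejuvenated old libraries would lie below all old ones in 73 of the 98. For fixed genes that count can only stay or rise when a library is dropped, and the matching share over all genes is not given here. What part the young-type transcripts of replicate 1 have in the members' values was not tested.

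**Figure D5:**
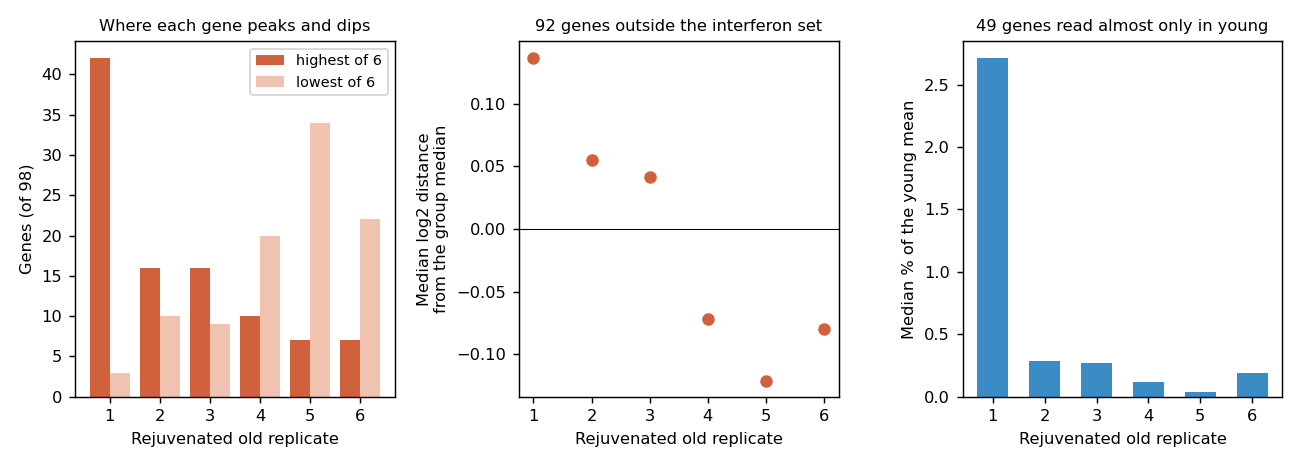
For each rejuvenated old replicate, the left panel counts the members that are highest or lowest there, the middle panel gives the median log2 distance of the 92 other members from their group median, and the right panel gives the median level, in percent of the young mean, of 49 genes read almost only in young MSCs. Replicate 1 leads in all 3, with 42 members highest and 2.71% of the young level.

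Of the 98 members, 14 belong to one of 22 lists of pathway genes and 84 to none. Over all 14353 genes tested, 918 (6.4%) were lower in rejuvenated old MSCs and also higher in young MSCs when each was set against old MSCs (limma, adjusted p under 0.05 for each), and both comparisons share the same 6 old libraries. In rejuvenated old against old MSCs alone, 20.6% of all genes tested were lower and 21.0% higher. Of the lists with a member, only the guidance and Notch list had most of its genes lower after co-culture. These guidance and Notch genes, with the member Ephb2, had 23 lower and 5 higher of 39 in rejuvenated old MSCs (median log2 fold change -0.31), and 7 of them were also higher in young. Growth factors and their receptors, with Pdgfc, Igf2r and Gdnf, had 12 lower and 17 higher of 47, of which 5 were lower in rejuvenated old and higher in young. Members were chosen on these contrasts and the rest of a list was not, so nothing is read from a difference between them. Matrix proteases and inhibitors, with Plat, had 13 lower and 11 higher of 29. Collagens and matrix glycoproteins had 18 lower and 5 higher of 36, but no member, and their median in young against old MSCs was -0.73. TGF-beta and BMP genes, with Ltbp1, were divided, with 12 lower and 11 higher of 38. In the lists with Cxcl10 (chemokines and cytokines), Itga8 (contractile and cytoskeletal genes) and Matn2 (cartilage), more genes were higher than lower after co-culture. The counts were 12 higher and 1 lower of 24 for the first, 8 and 5 of 21 for the second, and 5 and 3 of 15 for the last.

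The members came from 20 chromosomes, with the largest number, 13 (1.35% of its genes that had a mean of at least 50), on chromosome 2. On chromosomes 1, 7, 12 and 16 the median difference of young from old MSCs over all genes was -0.69, 0.62, -0.45 and -0.70 (log2), and 5, 4, 2 and 3 members lay there. The median for rejuvenated old against old MSCs on these chromosomes was between -0.005 and 0.062. Of the members, 93 encode proteins, and those with a transcript in the annotation had a median transcript length of 4117 bases and a GC content of 48.9%, against 3464 bases and 49.7% over all genes with a mean of at least 50.

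The genes at the limits of the rule lay close together. Cyth3 (-0.604) and Il6ra (-0.608) were just inside the limit for rejuvenated old against old MSCs, and Hlf (-0.598) and Sgsm2 (-0.594) just outside it. Igf2r (0.343) and Rprm (0.354) were just inside the limit for young against old MSCs, and Scd2 (0.283) and Btbd11 (0.279) outside. For the mean count, Palm3 (50.1) and Oit3 (51.1) were inside, and Crispld1 (48.99) and Igsf9 (45.2) outside.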

How the data were processed

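RNA of 18 cultures had been sequenced from TruSeq Stranded mRNA libraries. The authors aligned reads to mm10 with HISAT2, used StringTie and featureCounts for counting and DESeq2 for normalization, on Galaxy. Versions, annotation, strand setting and filters are not given in the sources used here. The deposited values are a signal, the reads per gene divided by a size factor per library. Whole reads were recovered from 100% of the values (tolerance 0.001). Strand setting being unknown, reads of overlapping or antisense genes cannot be told apart.

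Group means of deposited values gave the 98 members. The members, roles and gene lists were chosen with earlier results of these data known. Differences between all genes were tested with limma on log2(value + 1), with a trended prior variance, 3 group means and 14353 genes with a mean of at least 10. Calls had a Benjamini-Hochberg adjusted p under 0.05, and fold changes on this scale understate those of low genes. On recovered reads, edgeR's quasi-likelihood test and DESeq2 were alternatives. The fits were tested on simulated data. A group with at most 3 reads in every library was treated as at the floor, for counting error only. No pair of libraries in a group agreed within sampling noise (chi-square per degree of freedom 2.54 to 22.3).

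The named genes were the 14 members with the largest smaller difference, the 6 with the largest difference from old MSCs, the 6 with the highest mean normalized count (no RefSeq transcript length was used), those in a list, and 2 on each side of each limit. Predicted genes were passed over, and others named were chosen after their values were seen. The values of 1 member are not reported here. R 4.3.3, limma 3.58.1, edgeR 4.0.16, DESeq2 1.42.0 and Python 3.11.15 (pandas 2.3.3, numpy 2.4.6, matplotlib 3.10.9, scipy 1.17.1) were used. Positions are from RefSeq on GRCm38.p6, matched for 25275 of 27179 genes.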

Additional observations from a re-analysis of the deposited data

Results flagged for a closer look

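In 105 groups of 6 libraries, those of the named members, 8 single libraries lay far from the other 5 by Dixon's criterion (a gap to the nearest library over 0.625 of the range), and chance flags about 1 in 20 groups. Rejuvenated old replicate 1 was the library in 4 of them, at 245.1 for Rsad2, 70.0 for Mx1, 148.3 for Cxcl10 and 35.01 for Oit3, where the nearest other libraries of its group were at 98.9, 17.9, 49.1 and 22.6. Old replicate 2 was highest in 2, at 479.5 for Rsad2 and 3040 for Ifit3b, where the next old libraries were at 192 and 1215. In young MSCs, replicate 5 was at 262 for Gdnf and replicate 1 at 604 for Pdgfc.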

How the results depend on the processing

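The number of genes meeting the rule followed its limits. It was 164 with a mean of at least 10, 148 with a difference from old MSCs of at most -0.5, 50 at -0.8 and 26 at -1, and members without overlap numbered 32 and 18 at the last 2 limits. Leaving out 1 library at a time gave 90 to 137 members and 60 to 87 without overlap, highest in both without rejuvenated old replicate 1. Among the named members 1 difference changed sign, that of Ifit3b from old MSCs, from -0.66 to 0.067 without old replicate 2, the highest of -1.204 to 0.067 over all libraries left out in turn. List medians near 0 changed sign for interferon-stimulated genes (0.12 to -0.03 without rejuvenated old replicate 1), Wnt genes (-0.04 to 0.01 after co-culture with a mean of at least 50) and antioxidant genes (-0.04 to 0.03 in young MSCs with the same total). Scaling to the same total gave 2699 higher and 3236 lower calls of rejuvenated old against old MSCs in place of 3016 and 2955, 6486 and 5823 of young against old MSCs in place of 5967 and 6330, and 116 members. With a pseudocount of 10, 77 of the 98 members met the rule, 59 without overlap. The difference of Frem1 from old MSCs shrank from -1.06 to -0.21 and that of Fam180a from -2.04 to -0.70, and Frem1 was among the 21 that left. Calls between rejuvenated old and old MSCs were 5971 by limma, 6213 by edgeR and 6345 by DESeq2, of which 5902 and 5885 were shared with limma. Same-numbered libraries of different groups did not deviate together (correlations -0.152 to 0.074), and the main fit used no pairing. Whether such libraries shared an animal is not given by the labels, and low correlations cannot show that they did not. A replicate block gave 5769 calls of rejuvenated old against old MSCs. Young against old MSCs had 12219 with the block and 12297 without it. Depth limits Frem1, Steap4 and Fam180a, which were at the floor of 3 reads in rejuvenated old MSCs.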
